A study of Caenorhabditis elegans with 9 samples.

Results

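The 7 gut infection response genes of Caenorhabditis elegans, dod-17, dod-22, dod-24, irg-4, irg-5, irg-6 and sysm-1, were followed across worms that express human LRRK2 in neurons. They were taken by name from a deposited table of 28749 genes, in which 7 of 7 were found, and all 7 passed the filter on low values. Changes in human LRRK2, a kinase, can cause Parkinson's disease. RNA was sequenced from whole worms of 3 groups with 3 libraries each. N2 is the wild-type Bristol strain. WLZ1 carries the transgene wlzIs1, made of snb-1p::Hsa-LRRK2 and lin15(+), and expresses wild-type human LRRK2 under the pan-neuronal promoter of snb-1. WLZ3 carries wlzIs3, the same design with LRRK2(G2019S), the form with raised kinase activity. Each LRRK2 form is represented by 1 transgenic line. Both lines carry the marker lin15(+) within the transgene, and N2, which is wild type, carries no transgene. A strain with the marker alone was not analysed here. All strains were kept at 20 °C on Escherichia coli OP50. The labels give no stage, age or sex.

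The worm intestine is both the digestive organ and the main tissue in contact with bacteria that are eaten. Its best known defence pathway is a p38 MAP kinase cascade in which the adaptor TIR-1 acts through the kinases NSY-1, SEK-1 and PMK-1 on the transcription factor ATF-7, while the GATA factor ELT-2 sets intestinal expression more broadly. The irg names stand for infection response gene, and the dod names for downstream of DAF-16, the transcription factor of insulin signalling. All but sysm-1 encode proteins with a CUB-like domain, and sysm-1 encodes a small ShK-like protein whose promoter is widely used as a reporter of PMK-1 activity. The sequence name of sysm-1 is T24B8.5, and those of irg-4, irg-5 and irg-6 are F08G5.6, F35E12.5 and C32H11.1. The dod genes are K10D11.1 (dod-17), F55G11.5 (dod-22) and C32H11.12 (dod-24).

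Values are FPKM, read counts scaled by gene length and library total, so levels can be compared between genes. Comparisons between libraries hold only as far as the library total is a fair scale, and results under other scalings are given below. Depth recovered from the values was 38128715 to 53336509 reads per library. A library held 92 to 321 reads of dod-22 and 100 to 329 of dod-17, against 1042 to 4529 of sysm-1 and 1489 to 9521 of dod-24, with irg-4, irg-5 and irg-6 between 306 and 2110. The 2 thinnest genes therefore carry the largest counting error, and PCR copies are not independent molecules. Reads may also be mates of a pair. The recovered counts of srz-15 and srlf-5, genes with few reads, were even in every library. Those of other genes with few reads, such as F55G11.1, F55G11.7 and cld-1, included odd numbers. Whether mates were counted apart was not tested, and independent fragments may be fewer than the reads given. WLZ3 replicate 2 stood apart from the other WLZ3 libraries for dod-22 and dod-17, and results on these genes are also given without it. Changes are differences of log2(FPKM + 1), which are compressed for genes near 0. A gene was called at a limma adjusted p under 0.05 over the 14862 genes tested. None of the intestinal, neuronal, muscle, epidermal or germ line markers was at 0 in every library of a group. At this depth that bar is so low that it does not test the source of the RNA.

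In WLZ3, the G2019S strain, 4 of the 7 genes rose against N2 (dod-24, irg-6, sysm-1 and irg-4) and none fell. In WLZ1, the wild-type LRRK2 strain, sysm-1, dod-24 and irg-4 rose while dod-17 and irg-5 fell. Of all genes tested, 13.3% were called higher in WLZ3, 22.7% lower and 36% in either direction. In WLZ1 26.6% were called higher, 41.1% lower and 67.6% in either direction, so 5 called of 7 is near the share of all genes there. The median change of the 7 genes was 0.82 in WLZ3 and 0.18 in WLZ1, beside -0.02 and -0.13 for all genes tested. Both comparisons use the same N2 libraries.

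**Figure D1:**
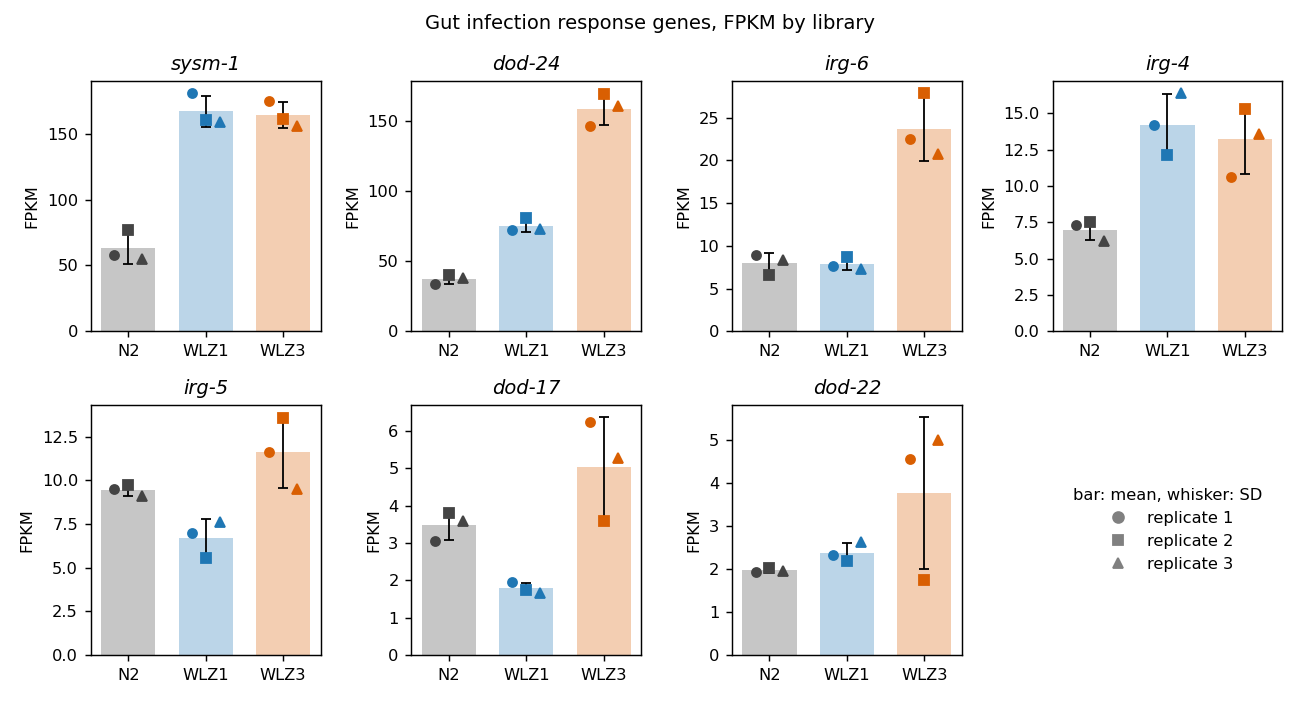
FPKM of each of the 7 genes (vertical axes, from 0) in the 3 N2, 3 WLZ1 and 3 WLZ3 libraries; points are libraries, bars are means and whiskers are SD. The sysm-1 points lie between 156 and 181 FPKM in the transgenic strains and between 54.5 and 77 in N2, dod-24 forms 3 separate steps, and irg-6 is high in WLZ3 alone.

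sysm-1, the reporter gene of the p38 pathway, was the most abundant of the 7 and rose by similar amounts in both strains. The gene has 3 exons and lies on the minus strand of chromosome II, 9082626 to 9083193 (WBcel235). Its FPKM was 58.1, 77 and 54.5 in the N2 libraries, 181, 160 and 159 in WLZ1 and 175, 161 and 156 in WLZ3. Every transgenic library lay above every N2 library, and the transgenic strains overlapped. The N2 libraries averaged 63.2 ± 12.1, the WLZ1 libraries 167 ± 12 and the WLZ3 libraries 164 ± 9.87 (all errors are SD, n = 3). The increase was 2.64-fold in WLZ1 (log2 change 1.40, SE 0.12, limma adjusted p = 1.39e-05) and 2.59-fold in WLZ3 (log2 change 1.37, SE 0.12, adjusted p = 0.000369). Between the strains sysm-1 differed by -0.03 on the log2 scale, with a 95% interval from -0.29 to 0.24 (adjusted p = 0.873). The labels do not say whether replicate libraries are separate cultures, so the p-values cover library-to-library spread alone, and that spread may be technical. In whole-worm RNA, a change in the number of cells of a type and a change in RNA per cell cannot be told apart.

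irg-4, on chromosome IV from 12435833 to 12438236 (plus strand, 7 exons), also rose in both strains, from a lower level. Its FPKM was 7.28, 7.53 and 6.18 in N2, 14.2, 12.1 and 16.4 in WLZ1 and 10.6, 15.3 and 13.6 in WLZ3. All 6 transgenic libraries lay above N2, and the transgenic ranges overlapped. The mean was 7.00 ± 0.715 in N2 and rose 2.03-fold in WLZ1, to 14.2 ± 2.14 (log2 change 0.92, SE 0.14, limma adjusted p = 0.000451). In WLZ3 it rose 1.88-fold, to 13.2 ± 2.38 (0.82, SE 0.14, adjusted p = 0.0042). WLZ3 differed from WLZ1 by -0.11, with a 95% interval from -0.43 to 0.22 (adjusted p = 0.579).

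dod-24, a gene held down by DAF-16 and induced by bacterial infection, rose in steps from N2 to WLZ1 to WLZ3. On chromosome IV it spans 12940106 to 12941354 on the minus strand, in 3 exons. Its FPKM was 33.8, 40.2 and 37.8 in N2, 72.1, 80.7 and 73.4 in WLZ1 and 147, 170 and 161 in WLZ3. The 3 groups did not overlap. The mean was 37.3 ± 3.24 in N2, 75.4 ± 4.6 in WLZ1 and 159 ± 11.4 in WLZ3. dod-24 rose 2.02-fold in WLZ1 (log2 change 1.00, SE 0.08, limma adjusted p = 9.57e-06) and 4.28-fold in WLZ3 (2.07, SE 0.08, adjusted p = 1.9e-06). It was 2.11-fold higher in WLZ3 than in WLZ1 (1.07, SE 0.08, adjusted p = 2.83e-05). Of the 14862 genes tested, its change in WLZ3 against N2 ranked 41 from the highest. In N2 dod-24 stood well under sysm-1, and in WLZ3 their libraries overlapped, at 147 to 170 and 156 to 175 FPKM. Within each library dod-24 was 0.522 to 0.695 times sysm-1 in N2, 0.399 to 0.504 times in WLZ1 and 0.843 to 1.06 times in WLZ3. This ratio did not overlap in any pair of groups, and each exact two-sided permutation test gave p = 0.1, the smallest that 3 libraries against 3 allow (0.15 after Benjamini-Hochberg adjustment over 9 tests of 3 ratios, which were chosen with values known). The ratio of dod-24 to irg-6 was 3.8 to 6.14 in N2, 9.27 or more in WLZ1 and 6.08 to 7.79 in WLZ3, with N2 and WLZ3 overlapping (exact permutation p = 0.2). That of sysm-1 to irg-4 was 7.98 to 10.2 in N2, 9.74 to 13.2 in WLZ1 and 10.5 to 16.4 in WLZ3. Its WLZ1 values overlapped those of N2 (exact permutation p = 0.2) and of WLZ3 (0.8).

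irg-6 rose in WLZ3 and not detectably in WLZ1. It lies on chromosome IV, 12912722 to 12914969 on the minus strand, with 9 exons in its longest transcript. Its FPKM was 8.89, 6.53 and 8.38 in N2, 7.63, 8.70 and 7.27 in WLZ1 and 22.5, 27.9 and 20.7 in WLZ3. The WLZ3 libraries lay above all 6 others, and N2 and WLZ1 overlapped. The mean was 7.94 ± 1.24 in N2, 7.86 ± 0.742 in WLZ1 and 23.7 ± 3.77 in WLZ3. irg-6 rose 2.99-fold in WLZ3 against N2 (log2 change 1.47, SE 0.13, limma adjusted p = 0.000476). It was 3.01-fold higher than in WLZ1 (1.47, SE 0.13, adjusted p = 9.65e-05), which is the test of the difference between the strains. Its change in WLZ1 was -0.01, with a 95% interval from -0.31 to 0.30 (adjusted p = 0.975). That value depended on scaling: it was 0.17 with median-of-ratios scaling (adjusted p = 0.316), 0.53 with quantile normalization (0.0139) and 0.35 when scaled to intestinal markers (0.0199).

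irg-5, on chromosome V from 13737010 to 13738474 (minus strand, 7 exons), was lower in WLZ1 than in the other groups. Its FPKM was 9.53, 9.75 and 9.10 in N2, 6.97, 5.57 and 7.62 in WLZ1 and 11.6, 13.6 and 9.53 in WLZ3. The WLZ1 libraries lay below all others, and the lowest WLZ3 library lay within the N2 range. The mean was 9.46 ± 0.331 in N2, 6.72 ± 1.04 in WLZ1 and 11.6 ± 2.05 in WLZ3. irg-5 fell 1.41-fold in WLZ1 (log2 change -0.45, SE 0.13, limma adjusted p = 0.0149) and was 1.72-fold higher in WLZ3 than in WLZ1 (0.70, SE 0.13, adjusted p = 0.00367). Its change in WLZ3 against N2 was 0.25 (adjusted p = 0.163). The fall in WLZ1 did not pass with median-of-ratios scaling (-0.27, limma adjusted p 0.0793) or when scaled to intestinal markers (-0.10, 0.592), and turned to 0.11 with quantile normalization (0.501). In WLZ3 against N2 irg-5 was called higher with quantile normalization (0.49, adjusted p = 0.0246) and when scaled to intestinal markers (0.43, 0.0418), and the difference between the strains was not called with quantile normalization (0.38, 0.0524).

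dod-17, on chromosome IV from 12976303 to 12978343 (plus strand, 8 exons), was low in WLZ1. Its FPKM was 3.04, 3.79 and 3.59 in N2, 1.94, 1.75 and 1.65 in WLZ1 and 6.25, 3.59 and 5.26 in WLZ3. Every WLZ1 library lay below every other, and WLZ3 replicate 2 lay within the N2 range. The mean was 3.47 ± 0.389 in N2, 1.78 ± 0.149 in WLZ1 and 5.03 ± 1.35 in WLZ3. dod-17 fell 1.95-fold in WLZ1 (log2 change -0.68, SE 0.16, limma adjusted p = 0.00477) and was 2.83-fold higher in WLZ3 than in WLZ1 (1.09, SE 0.16, adjusted p = 0.00109). In WLZ3 against N2 the change was 0.41 (adjusted p = 0.0769), with 0.60 without WLZ3 replicate 2 (adjusted p = 0.0165) and 0.26 without WLZ3 replicate 1 (0.237). The fall in WLZ1 was not called with quantile normalization (-0.20, adjusted p = 0.231) or when scaled to intestinal markers (-0.33, 0.133), and the WLZ3 change was called under each of the 3 other scalings (0.45 to 0.62).

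dod-22 was the least abundant of the 7 in N2 and WLZ3 and was called in none of the comparisons. It lies on chromosome IV, 12965374 to 12967392 on the plus strand, with 8 exons in its longest transcript. Its FPKM was 1.92, 2.03 and 1.96 in N2, 2.32, 2.18 and 2.62 in WLZ1 and 4.56, 1.74 and 5.01 in WLZ3. In WLZ3, replicates 1 and 3 lay above all other libraries and replicate 2 lay below all others. The mean was 1.97 ± 0.0568 in N2, 2.37 ± 0.226 in WLZ1 and 3.77 ± 1.78 in WLZ3. The log2 change was 0.18 in WLZ1 (limma adjusted p = 0.552), 0.60 in WLZ3 (0.0964) and 0.42 between the strains (0.216). Without WLZ3 replicate 2, dod-22 was higher in WLZ3 than in N2 (0.96, adjusted p = 0.0032) and than in WLZ1 (0.78, adjusted p = 0.00179). Without WLZ3 replicate 3 these differences were 0.39 (adjusted p = 0.271) and 0.21 (0.558), and without replicate 1 they were 0.45 (0.256) and 0.27 (0.481). With quantile normalization it was called higher in WLZ1 (0.64, adjusted p = 0.0401) and WLZ3 (0.75, 0.0394), and when scaled to intestinal markers in WLZ3 (0.78, 0.0449).

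The library WLZ3 replicate 2 did not sit low for all of these genes. Its dod-22 value was 0.363 times the mean of the other WLZ3 libraries and its dod-17 value 0.623 times. For irg-6 and irg-5 it was 1.29 times that mean, for irg-4 1.26 times and for dod-24 1.10 times, the highest WLZ3 library in each case. The SD within WLZ3 was 47.1% of the mean for dod-22 and 26.8% for dod-17, and 6.03% to 18.1% for the other members.

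**Figure D2:**
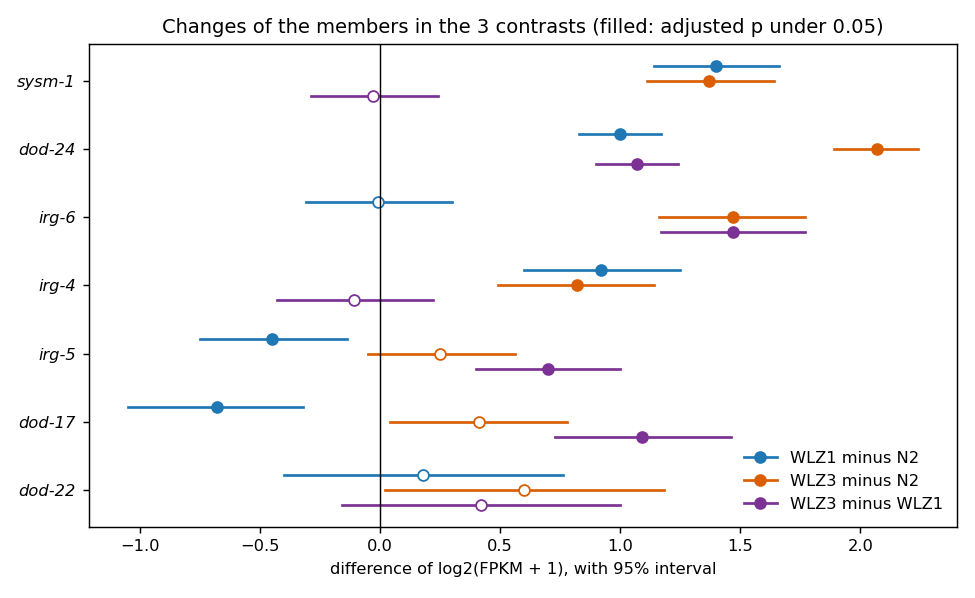
Differences of log2(FPKM + 1) with 95% intervals (horizontal axis) for each gene in the comparisons of WLZ1 with N2, of WLZ3 with N2 and of WLZ3 with WLZ1; filled symbols passed an adjusted p under 0.05. sysm-1 and irg-4 lie near 0 between the strains while irg-6, dod-17, dod-24 and irg-5 lie above it, and dod-22 has the widest intervals.

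Compared directly, WLZ3 exceeded WLZ1 for irg-6, dod-17, dod-24 and irg-5 and fell below it for none. Of all genes tested, 29.6% were called higher in WLZ3 than in WLZ1, 12.6% lower and 42.1% in either direction. The median difference of the 7 genes was 0.70, beside 0.10 for all genes. The order of abundance changed with strain. In N2 it ran sysm-1, dod-24, irg-5, irg-6, irg-4, dod-17, dod-22, and only irg-6 and irg-4 overlapped as neighbours. In WLZ1 irg-4 followed dod-24, irg-6 and irg-5 overlapped, and dod-17 came last. In WLZ3 irg-6 followed dod-24. There sysm-1 overlapped dod-24, irg-4 overlapped irg-5, and dod-17 overlapped dod-22.

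Groups were fully separated, with no overlap of libraries, for 6 of the 7 members in WLZ1 against N2 (70.8% of all genes tested), for 4 in WLZ3 against N2 (51.9%) and for 4 between the strains (55.7%). The balance of directions moved with scaling, and so did the median of all genes. In WLZ1 that median was -0.13 as deposited, 0.04 by median-of-ratios scaling, 0.07 by quantile normalization and 0.22 when scaled to intestinal markers, and the share of called genes that were higher was 39.3%, 54%, 56.5% and 65.3%. In WLZ3 the share was 36.9%, 50%, 51.3% and 76.8%, and between the strains 70.2%, 45.7%, 47.9% and 36.5%. Among the 7 genes, WLZ1 had 3 higher and 2 lower as deposited, 3 and 1 under median-of-ratios scaling, 5 and 0 under quantile normalization and 4 and 0 when scaled to intestinal markers. In WLZ3 against N2, 4, 5, 7 and 7 were higher and none was lower. Of all genes tested, 26.6%, 39.7%, 35.5% and 45.5% were called higher in WLZ1 under these settings, and 13.3%, 20.4%, 15.9% and 32.5% in WLZ3. Relative to the median of all genes as deposited, the change in WLZ3 was 2.09 for dod-24, 1.49 for irg-6, 1.40 for sysm-1 and 0.84 for irg-4, and in WLZ1 1.53 for sysm-1, 1.13 for dod-24 and 1.05 for irg-4. The calls of these genes held under all 3 other scalings.

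dod-17, dod-22, dod-24 and irg-6 lie together on chromosome IV, within 65.6 kb from irg-6 to dod-17. This stretch, chosen after the positions of the 4 genes were seen, holds 17 other protein-coding genes, of which 8 were tested. dod-21 and cld-1 reached 1 FPKM in the WLZ3 libraries alone and passed the filter through them, so a higher value there was fixed by the filter and they are not counted here. Of the other 6, 4 rose and 1 fell in WLZ3 against N2 (13.3% and 22.7% of all genes tested), with a median of 0.62. In WLZ1 against N2, 2 rose (mbug-1 and F55G11.8) and 2 fell (srlf-4 and C32H11.3), with a median of -0.06. Of all genes tested, 26.6% rose and 41.1% fell there. C32H11.3 passed the filter with no WLZ1 library at 1 FPKM, so a lower value in WLZ1 was favoured by the filter. WLZ3 exceeded WLZ1 for 4 and fell below it for none (29.6% and 12.6% of all genes). The balance in WLZ1 moved to 4 higher and 1 lower with quantile normalization (median 0.43) and to 3 and 1 with intestinal scaling (0.29). The shares of all genes were then 35.5% higher and 27.3% lower, and 45.5% and 24.1%. In WLZ3, 4 were higher under each of the 3 other scalings. The share of all genes higher there was 20.4% with median-of-ratios, 15.9% with quantile and 32.5% with intestinal scaling.

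mbug-1, which starts between F55G11.2 and dod-17, rose further in WLZ3 than any of the 4. Its FPKM was 10.7 ± 1.02 in N2, 18.1 ± 2.23 in WLZ1 and 67 ± 11.6 in WLZ3. These steps did not overlap. It rose 1.69-fold in WLZ1 (log2 change 0.71, limma adjusted p = 0.0011) and 6.26-fold in WLZ3 (2.53, adjusted p = 1.7e-05). dod-21, another gene named as downstream of DAF-16, was near 0 outside WLZ3, at 0.0746 to 0.178 FPKM in N2, 0.164 to 0.247 in WLZ1 and 2.53 to 3.61 in WLZ3 (4 to 10, 10 to 15 and 130 to 190 reads per library). cld-1 stood at 0 to 0.037 FPKM in N2, 0.147 to 0.391 in WLZ1 and 1.01 to 1.51 in WLZ3 (0 to 2, 9 to 24 and 53 to 80 reads). No test is given for dod-21 and cld-1, because of the filter. C32H11.4 stood at 11.7 FPKM in N2 and 11.6 in WLZ1 and rose to 19.9 in WLZ3 (0.71, adjusted p = 0.00347). F55G11.8, next to dod-22, rose from 5.45 to 8.67 FPKM in WLZ1 (0.58, adjusted p = 0.000745) and to 9.94 in WLZ3 (0.76, 0.00151). F55G11.2, between dod-22 and dod-17, rose in WLZ3 from 3.25 to 5.13 FPKM (0.53, adjusted p = 0.00713). srlf-4 fell in both strains, from 3.95 FPKM in N2 to 0.578 in WLZ1 and 2.11 in WLZ3 (-1.64, adjusted p = 2.74e-05, and -0.66, 0.0129). C32H11.3 stood below 1 FPKM on average in every group, fell in WLZ1 (-0.36, adjusted p = 0.0481) and was not called in WLZ3 (-0.04, 0.842). With quantile normalization the srlf-4 call in WLZ3 was lost (-0.41, adjusted p = 0.0868), as it was with intestinal scaling (-0.48, 0.0556), and so was that of C32H11.3 in WLZ1 (-0.16, 0.454, and -0.01, 0.948). C32H11.4 was called higher in WLZ1 under both (0.43, adjusted p = 0.018, and 0.34, 0.0447). The genes of the stretch include relatives of one another, and the labels do not say how reads that match several genes were counted.

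**Figure D3:**
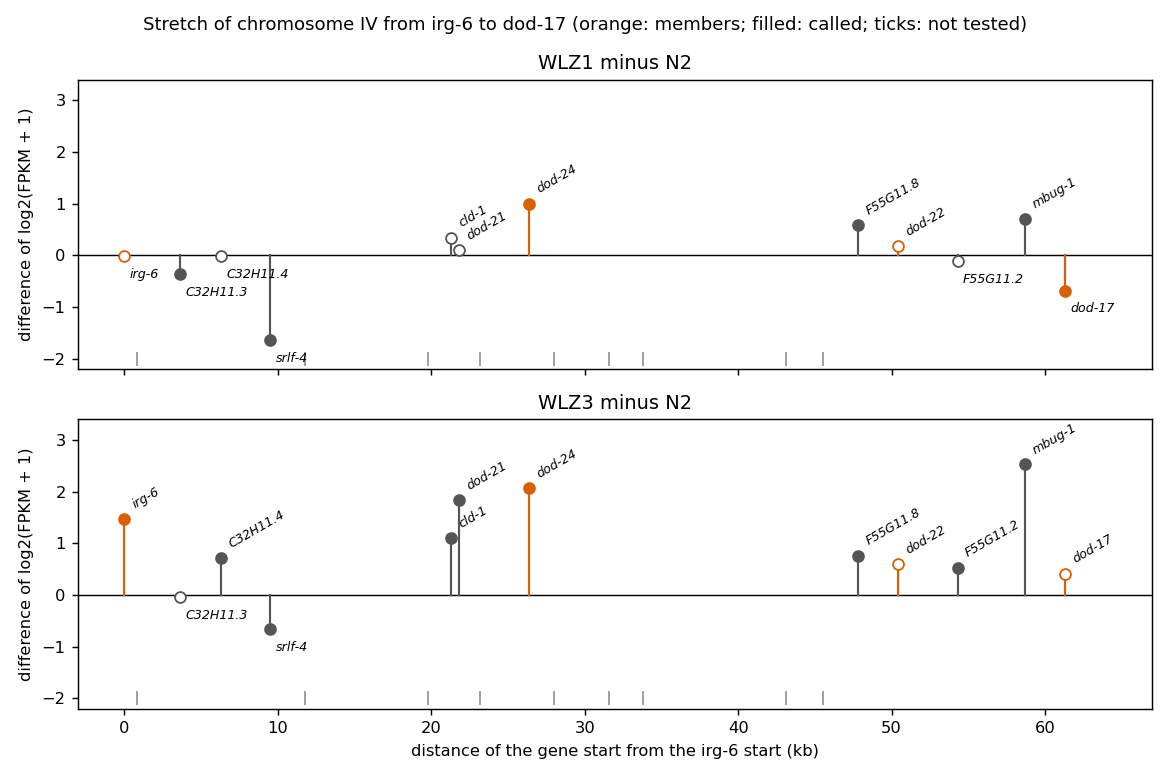
Differences of log2(FPKM + 1) against N2 (vertical axis) for the protein-coding genes between irg-6 and dod-17, by the distance of the gene start from the irg-6 start in kb (horizontal axis), for WLZ1 and WLZ3; orange points are the 4 members, filled points were called and ticks mark genes not tested. dod-21 and cld-1 passed the filter through WLZ3 alone. In WLZ3 most tested genes lie above 0 and mbug-1 is highest at 2.53, and in WLZ1 they lie on both sides of 0.

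Around all 7 genes, 30 other protein-coding genes start within 10 kb, some of them in the chromosome IV stretch, and 19 were tested. Without dod-21 and cld-1, 8 of the other 17 rose in WLZ3 against N2 and 2 fell, srlf-4 and F35E12.9 (median 0.14). Beside them, 13.3% of all genes tested rose and 22.7% fell. In WLZ1 against N2, 3 of the 17 rose, mbug-1, F55G11.8 and dct-17, and 9 fell, C32H11.3 among them (median -0.32). The shares of all genes were 26.6% and 41.1%. With quantile normalization 6 rose and 5 fell in WLZ1 (median 0.17, 35.5% and 27.3% of all genes). With intestinal scaling 5 rose and 3 fell there (0.03, 45.5% and 24.1%). WLZ3 exceeded WLZ1 for 11 of the 17 (29.6% of all genes) and fell below it for none. With quantile normalization (17.1%) or intestinal scaling (15.6%) it exceeded WLZ1 for 8, again with none below. Next to irg-5 on chromosome V, dct-17 rose from 3.12 ± 0.377 FPKM in N2 to 5.29 ± 0.877 in WLZ1 and 11.9 ± 3.55 in WLZ3 (limma adjusted p = 0.016 and 0.000946). Its other named neighbour, F35E12.9, fell from 14.3 FPKM to 6.75 in WLZ1 and 8.46 in WLZ3 (adjusted p = 0.000465 and 0.0105). K08D8.4, near irg-6, fell from 6.76 to 4.83 FPKM in WLZ1 and rose to 11.6 in WLZ3 (adjusted p = 0.00257 and 0.00119). Near irg-4 the cuticle collagen gene col-130 fell from 32.4 ± 7.19 FPKM to 3.31 ± 1.59 in WLZ1 (adjusted p = 9.4e-05) and stood at 17.6 ± 9.87 in WLZ3 (0.0639). Beside it, C25G4.2 fell from 47.7 to 37.4 FPKM in WLZ1 (adjusted p = 0.00369). A neighbour of sysm-1, the proneural factor gene hlh-3, fell from 15.6 to 11.1 FPKM in WLZ1 (adjusted p = 0.0124). With quantile normalization the WLZ1 changes of K08D8.4 (0.17, adjusted p = 0.0987) and hlh-3 (-0.07, 0.567) were not called. With intestinal scaling neither was called (-0.06, adjusted p = 0.672, and -0.12, 0.538), nor was C25G4.2 (0.00, 0.978).

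Most genes of the p38 pathway, which acts upstream of several of these defence genes, were lower in both strains as deposited. Of 15 tested, 12 fell and 1 rose in WLZ1 (median -0.59), and 10 fell and none rose in WLZ3 (median -0.33). Over all genes tested, 41.1% were called lower and 26.6% higher in WLZ1, and 22.7% and 13.3% in WLZ3. The pathway gene that rose in WLZ1 was skn-1, a stress response factor (98.4 to 109 FPKM, log2 change 0.14). tir-1 was at 15.6 ± 1.06 FPKM in N2 and fell to 9.04 ± 1.52 in WLZ1 (log2 change -0.73, limma adjusted p = 0.000349) and 12.1 ± 0.717 in WLZ3 (-0.34, 0.0386). pmk-1, the p38 kinase, fell from 19.9 ± 2.03 FPKM to 14.4 ± 1.34 in WLZ1 (-0.44, adjusted p = 0.00175) and 16.4 ± 0.52 in WLZ3 (-0.26, 0.0439). nsy-1 fell from 16.4 FPKM to 12.3 and 13.4 (-0.39, adjusted p = 0.00218, and -0.26, 0.0315). sek-1 fell from 23.1 FPKM to 17.8 in WLZ1 (-0.36, adjusted p = 0.00334) and stood at 20.4 in WLZ3 (-0.17, 0.117). The transcription factor gene atf-7 stood at 109, 109.7 and 117 FPKM in N2, WLZ1 and WLZ3, with changes of 0.00 and 0.09 that were not called. The change of atf-7 in WLZ1 was -0.07 with quantile normalization (adjusted p = 0.269) and was called at 0.20 with median-of-ratios and 0.36 with intestinal scaling (0.00409 and 0.0043). Other members that fell in both strains were tpa-1, a protein kinase C, at 19.4, 7.77 and 12.7 FPKM, and egl-8, a phospholipase C, at 18.3, 8.56 and 13.4 FPKM. vhp-1, a phosphatase that restrains MAP kinases, was among them, at 34.1, 16.3 and 21.6 FPKM, and so was olrn-1, at 6.21, 2.93 and 4.21 FPKM.

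These counts depended on scaling. With median-of-ratios scaling 11 of the 15 fell and 3 rose in WLZ1, with quantile normalization 6 fell and 1 rose, and when scaled to intestinal markers 7 fell and 3 rose. In WLZ3 the same settings gave 8 and 1, 3 and 0, and 2 and 2. The shares of all genes called lower under these settings were 33.9%, 27.3% and 24.1% in WLZ1 and 20.4%, 15.1% and 9.84% in WLZ3. The shares called higher are given above. The WLZ1 call of tir-1 held under all 3 of these scalings, and those of nsy-1, pmk-1 and sek-1 were lost with quantile normalization and intestinal scaling. Median-of-ratios scaling ended the sek-1 call as well (adjusted p = 0.0623). In WLZ3 none of the tir-1, nsy-1 and pmk-1 calls held with quantile normalization or intestinal scaling, and the pmk-1 call was lost with median-of-ratios scaling too (0.0557). The WLZ3 calls of tpa-1 (-0.39, adjusted p = 0.0546) and egl-8 (-0.23, 0.127) were lost with intestinal scaling, and that of olrn-1 with quantile normalization (-0.22, 0.088) and intestinal scaling (-0.28, 0.145). The skn-1 call in WLZ1 was lost with quantile normalization (0.07, adjusted p = 0.147).

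Genes for other regulators of gut immunity were lower or not called as deposited, and some were called higher under each other scaling. Of 17 tested, 11 fell and none rose in WLZ1 (median -0.26), 4 fell (hlh-30, zip-2, dbl-1 and hif-1) and none rose in WLZ3 (median -0.13), and 6 were higher in WLZ3 than in WLZ1. Among all genes tested, 41.1% fell and 26.6% rose in WLZ1, 22.7% fell and 13.3% rose in WLZ3, and 29.6% were higher in WLZ3 than in WLZ1. The elt-2 level was 8.22 ± 0.641 FPKM for N2, 7.27 ± 1.09 for WLZ1 and 9.03 ± 0.58 for WLZ3, with changes of -0.16 and 0.12 (limma adjusted p = 0.207 and 0.393). The direction in WLZ1 turned under all 3 other scalings (0.01 to 0.38, the last by quantile normalization with adjusted p = 0.0143), and the WLZ3 change was called with quantile normalization (0.37, 0.0366) and intestinal scaling (0.30, 0.037). Both elt-2 and elt-7 are among the markers that set the intestinal scaling, so their values under it are relative to a set that holds them. zip-2, a bZIP factor of the infection response, fell from 289 ± 24.1 FPKM to 172 ± 10.6 in WLZ1 and 224 ± 1.07 in WLZ3 (adjusted p = 1.91e-05 and 0.00463). hlh-30, the worm TFEB, fell from 53.3 ± 3.33 FPKM to 30.2 ± 0.488 and 39.9 ± 0.935 (adjusted p = 4.47e-06 and 0.00123). dbl-1, a TGF-beta ligand, stood at 7.45 FPKM in N2 and fell to 3.37 and 4.92 (adjusted p = 0.000799 and 0.0401). The nuclear receptor gene nhr-8 fell from 8.24 FPKM to 4.26 in WLZ1 (adjusted p = 0.000901) and stood at 6.14 in WLZ3 (0.0637). With median-of-ratios scaling 4 of the 17 rose and 6 fell in WLZ1 (39.7% and 33.9% of all genes). In WLZ3 2 rose and 4 fell (20.4% of all genes each way). With quantile normalization 3 rose and 7 fell in WLZ1 (35.5% and 27.3%), and 1 rose and 3 fell in WLZ3 (15.9% and 15.1%). With intestinal scaling 5 of the 17 rose and 6 fell in WLZ1 (median 0.09), beside 45.5% and 24.1% of all genes. In WLZ3 that scaling gave 3 that rose and 1 that fell (median 0.05), beside 32.5% and 9.84% of all genes. In WLZ3 the dbl-1 call was lost with quantile normalization (-0.28, adjusted p = 0.128) and intestinal scaling (-0.33, 0.186), and the calls of zip-2 (-0.19, 0.132) and hif-1 (-0.08, 0.533) with intestinal scaling. The nhr-8 call in WLZ1 was lost with quantile normalization (-0.24, adjusted p = 0.222).

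Other genes induced by infection moved both ways. Of 19 tested, 4 rose and 8 fell in WLZ1 (median -0.08), 5 rose and 5 fell in WLZ3 (median 0.08), and 11 were higher and 3 lower in WLZ3 than in WLZ1 (median 0.43). The WLZ1 counts are near the shares of all genes tested, 26.6% higher and 41.1% lower. Those shares were 13.3% and 22.7% in WLZ3, and 29.6% and 12.6% between the strains. The listed genes that rose in WLZ1 were irg-3, clec-85, lys-7 and C17H12.8, and those that rose in WLZ3 were irg-8, clec-85, mul-1, K08D8.5 and F01D5.5. Those that fell in WLZ3 were irg-2, clec-4, clec-60, ilys-3 and C17H12.8. lys-7, a lysozyme gene, had its highest level in WLZ1, with 284, 448 and 344 FPKM in N2, WLZ1 and WLZ3. irg-8 went down in WLZ1 and up in WLZ3, from 111 FPKM to 87.7 and 137 (log2 change -0.33 and 0.29, limma adjusted p = 0.00722 and 0.0276), and C17H12.8 went the other way, from 188 to 218 and 142 (0.21 and -0.40, 0.0446 and 0.00762). In WLZ1, 7 were higher and 7 lower with median-of-ratios scaling (median 0.09), 7 and 5 with quantile normalization (-0.05) and 8 and 3 with intestinal scaling (0.27). In WLZ3 the same settings gave 5 and 5, 4 and 3, and 8 and 2. Between the strains they gave 8 and 3, 7 and 4, and 5 and 3. Among all genes the strains differed by 24.1% higher and 28.6% lower, 17.1% and 18.6%, and 15.6% and 27.2%. The shares for WLZ1 and WLZ3 under these settings are given above. The C-type lectin gene clec-85 rose in steps like dod-24, from 91.8 ± 5.74 FPKM in N2 to 130 ± 12.3 in WLZ1 (log2 change 0.50, limma adjusted p = 0.00086) and 186 ± 17.4 in WLZ3 (1.01, adjusted p = 0.000369). The lysozyme gene ilys-3 fell from 11.5 ± 4.08 FPKM to 1.18 ± 0.435 in WLZ1 and 4.33 ± 1.53 in WLZ3 (adjusted p = 8.4e-05 and 0.0126). Another lectin gene, clec-60, fell from 2.51 ± 0.12 FPKM to 0.329 ± 0.111 and 1.73 ± 0.168 (adjusted p = 1.14e-05 and 0.0328). The flavin monooxygenase gene fmo-2 fell from 6.46 to 3.16 FPKM in WLZ1 (adjusted p = 0.0109) and stood at 5.92 in WLZ3 (0.653). The opposite changes of irg-8 were not both called under any other scaling: median-of-ratios scaling gave -0.14 in WLZ1 (adjusted p = 0.192), intestinal scaling gave 0.02 there (0.889), and in WLZ3 it was 0.23 with quantile normalization (0.0591). Those of C17H12.8 were both called with median-of-ratios scaling and not with quantile normalization (0.18 in WLZ1, adjusted p = 0.0926) or intestinal scaling (-0.22 in WLZ3, 0.0717). In WLZ3 the clec-60 and clec-4 calls were lost with quantile normalization (-0.17, adjusted p = 0.245, and -0.20, 0.215) and intestinal scaling (-0.19, 0.307, and -0.26, 0.1), and the fmo-2 call in WLZ1 was lost with both (-0.32, 0.275, and -0.52, 0.0809).

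Other dod genes were also split. Of 6 tested, as deposited, dod-3, dod-6 and dod-23 fell in both strains, none rose in WLZ1, and dod-19 rose in WLZ3. The sixth is dod-21, described above. The shares of all genes tested were 41.1% lower and 26.6% higher in WLZ1, and 22.7% and 13.3% in WLZ3. dod-19 stood at 87.2 ± 6.23 FPKM in N2 and 75.1 ± 8.42 in WLZ1 (limma adjusted p = 0.0745) and rose to 130.5 ± 13.8 in WLZ3 (0.00367). dod-6 fell from 221 ± 5.53 FPKM to 89.2 ± 11.5 and 129.8 ± 14.7 (adjusted p = 1.05e-05 and 0.0016), and dod-23 from 75.3 ± 8.55 to 47.6 ± 3.62 and 61.9 ± 2.24 (0.000146 and 0.0316). With intestinal scaling the dod-23 call in WLZ3 was lost (-0.09, adjusted p = 0.5), the dod-3 calls were lost in both strains (-0.22, 0.354, and -0.43, 0.102), and the dod-19 change in WLZ1 turned to 0.13. Median-of-ratios scaling ended the dod-3 call in WLZ1 too (-0.37, adjusted p = 0.0908). With quantile normalization 1 of the 5 genes other than dod-21 rose and 4 fell in WLZ1 (35.5% and 27.3% of all genes).

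**Figure D4:**
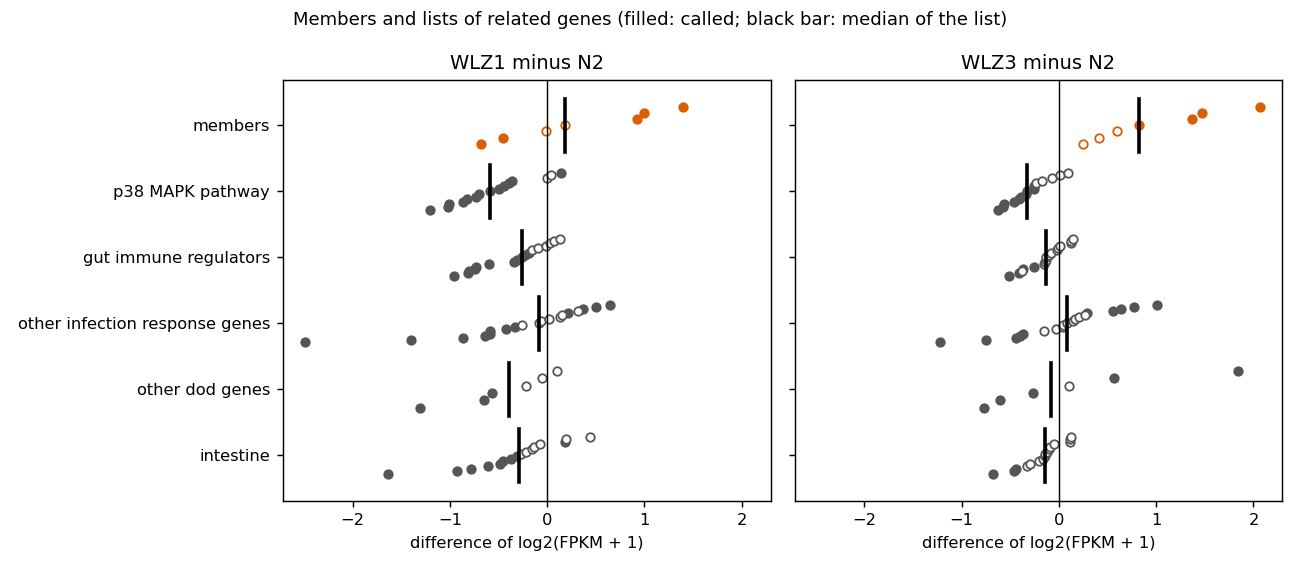
Differences of log2(FPKM + 1) against N2 (horizontal axes) for the 7 genes and for the lists of related genes and intestinal markers, in WLZ1 and WLZ3; points are genes, filled points were called and black bars are medians. The median of the 7 genes lies at 0.18 in WLZ1 and 0.82 in WLZ3, and the p38 pathway medians lie at -0.59 and -0.33. The other dod genes and their median include dod-21, which passed the filter through WLZ3 alone.

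Intestinal markers did not rise as a group with the defence genes. Of 16, 8 fell and 1, spl-1, rose in WLZ1 (median -0.29), and 3 (ifb-2, inx-16 and cpr-1) fell and none rose in WLZ3 (median -0.14). Beside them, 41.1% of all genes tested fell and 26.6% rose in WLZ1, and 22.7% and 13.3% in WLZ3. In WLZ1 5 fell and 3 rose under median-of-ratios scaling (33.9% and 39.7% of all genes). Under quantile normalization 5 fell and 2 rose there (27.3% and 35.5%). The summed FPKM of the markers was 3999.8 to 4375 in N2, 3308 to 4026 in WLZ1 and 3305 to 3728 in WLZ3, and none was at 0 in every library. ifb-2, a filament gene of the gut lumen, fell from 59.2 to 18.2 FPKM in WLZ1 and 36.7 in WLZ3 (limma adjusted p = 3.03e-06 and 0.00197), and the innexin gene inx-16 from 27.2 to 13.7 and 19.8 (3.32e-05 and 0.00829). A second filament gene, ifc-2, fell from 16.7 to 9.29 FPKM in WLZ1 (adjusted p = 8.97e-06), and the sodium-proton exchanger gene nhx-2 from 18.8 to 12 (0.000438). The nhx-2 call was lost with quantile normalization (-0.26, adjusted p = 0.0626), and so was that of spl-1 (0.16, 0.0778). When each library was scaled to the mean of these markers, sysm-1, dod-24 and irg-4 were still called in both strains and irg-6 was called in both.

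Markers of other tissues differed between the strains as well. In WLZ1, 8 of 8 neuronal, 8 of 8 muscle and 6 of 8 epidermal markers fell and 10 of 10 germ line markers rose. Across all genes tested, 41.1% fell and 26.6% rose there, and 22.7% and 13.3% in WLZ3. In WLZ3, 7, 4 and 5 of these somatic markers fell, 1 epidermal marker, the adult collagen gene col-19, rose and 7 germ line markers rose. With intestinal scaling 5 neuronal, 1 muscle and 2 epidermal markers fell in WLZ3, while 1 muscle, 2 epidermal and 10 germ line markers rose. In WLZ1 that scaling left 7, 6 and 6 somatic markers lower, 1 epidermal marker higher and 10 germ line markers higher. The summed FPKM of germ line markers was 1715 to 1895 in N2, 2308 to 2447 in WLZ1 and 2083 to 2123 in WLZ3, and that of epidermal markers 887 to 1008, 272 to 351 and 668 to 979.7. The part of tissue composition in the changes of the 7 genes was not tested.

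The genes most like each member were found by the distance between centred log2(FPKM + 1) values over the 9 libraries, among 9523 or 9524 genes whose mean was 5 FPKM or more. For dod-17 they were the cuticle collagen genes col-8, at 311, 201 and 459 FPKM in N2, WLZ1 and WLZ3 (distance 0.33), and col-140, at 599, 371 and 798 FPKM (0.42). For irg-6 they were Y37H2A.13, at 6.14, 8.63 and 25.1 FPKM (0.67), and F01D5.1, at 15, 14.7 and 35.7 FPKM (0.78). Y37H2A.13 was also closest to dod-24 (0.92), followed by C14C6.5, at 78.8, 161 and 230.4 FPKM (0.93). For sysm-1 they were F59A7.12, at 6.46, 13.2 and 17 FPKM (0.69), and the lectin gene clec-223, at 3.51, 11.3 and 13.8 FPKM (0.71). For irg-4 they were ZC204.14 (0.44) and the pseudogene Y102A5C.6 (0.46). irg-5 was closest to the pseudogene R09B3.6 (0.32) and to cox-4, a subunit of cytochrome c oxidase, at 228, 178 and 251 FPKM (0.35). dod-22 was closest to F01D5.5 (0.68) and T10F2.5 (0.69). None of these genes lies on chromosome IV, where 5 of the 7 members lie.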

How the data were processed

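Poly(A) RNA of 9 whole-worm libraries was measured. The authors deposited 1 table of FPKM values, and per the submitters' processing notes the build was WBcel235 and the tools were featureCounts 2.0.3, HISAT2 2.2.1 and fastp 0.23.2. The labels name a pair of sequencers without saying which library was run on which, and give neither the strand setting nor the handling of reads with several matches, so batches by instrument could not be checked. Names came from RefSeq (28744 genes matched, 5 not) and positions and exons from Ensembl release 115. No other annotated gene overlaps a member.

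Depth was recovered by multiplying FPKM by exon length. In single-transcript genes, 99.89% to 99.91% of values per library were whole reads within a tolerance of 0.02. These reads were used to give depth, and for dod-21 and cld-1 are printed beside FPKM. They entered no test.

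Groups were compared with limma 3.58.1 in R 4.3.3, as a trended fit of log2(FPKM + 1) over the 9 libraries together. A gene entered if 3 or more libraries reached 1 FPKM, which gave 14862 genes. P-values were two-sided and adjusted by the Benjamini-Hochberg method over all genes within a contrast. The fit was tested on simulated data. Data handling used Python 3.11.15, pandas 2.3.3, numpy 2.4.6 and scipy 1.17.1.

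The members and gene lists were chosen with earlier results of these data known. Named genes are the members, tir-1, nsy-1, sek-1, pmk-1, atf-7 and elt-2, up to 4 called genes per list by largest change, up to 2 neighbours per member, and the 2 genes most like each member. The other genes of the chromosome IV stretch, and further members of the lists named beside a count of 5 or fewer, were chosen after their values were seen. In the lists, hlh-26, C23G10.1 and dod-20 were below the filter, dod-8 was not matched by name, and F49F1.6 is mul-1 and was counted once. Alternatives were other pseudocounts, filters and scalings, a replicate block, fits of only the groups compared, and leaving out each library. A planned search of promoters for motifs was not run, because no sequence was used here.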

Additional observations from a re-analysis of the deposited data

How the results depend on the processing

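Of 372 recomputed changes of the 7 genes, 345 kept their direction and their side of the threshold, 6 lost the call, 13 gained one and 11 changed sign, with 1 of the lost and 2 of the gained calls among the sign changes. Other filters, the replicate block, fits of only the groups compared and leaving out a library of the third group cannot move a change, only its p-value. The 345 therefore include values whose direction was fixed by the setting. The sign changes were in irg-5 in WLZ1 (0.11 with quantile normalization), irg-6 in WLZ1 (0.17 with median-of-ratios scaling, 0.53 with quantile normalization, 0.35 with intestinal scaling, and -0.12 to 0.07 when 1 library was left out), and, when 1 library was left out, irg-4 (-0.21 to 0.03) and sysm-1 (-0.07 to 0.03) between the strains. With a library left out, 5 members were called in WLZ1 each time, 4 to 6 in WLZ3 and 4 to 5 between the strains. All 7 were called in WLZ3 with quantile normalization and with intestinal scaling, where the cause was not tested. Over all genes, 8905 to 9913 were called in WLZ1, 3013 to 5597 in WLZ3 (3013 without N2 replicate 2 and 3204 without N2 replicate 3, against 5354 with all) and 4369 to 6508 between the strains. A filter at a mean of 5 FPKM tested 9524 genes, without dod-17 and dod-22, and called 6469 in WLZ1 and 3782 between the strains. Of 21 mean levels, 17 moved by less than 1 SD with median-of-ratios scaling, and dod-22 in N2 (1.85), dod-24 in WLZ1 (81.2), irg-5 in N2 (8.89) and sysm-1 in WLZ1 (179) moved by more.

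Libraries share replicate numbers across groups, but nothing says that a number marks a shared culture or day. Same-numbered libraries correlated at -0.145 to 0.244 in their deviations, with 2 of 9 pairs over 0.1, and in 4 of 18 cases a library correlated best with its own number in another group. With a replicate block 5, 4 and 4 members and 9623, 4410 and 5429 genes were called in WLZ1, in WLZ3 and between the strains, against 10051, 5354 and 6259 without it. The lowest read count of a member in a library was 92, for dod-22, beside 100 for dod-17. The SD of dod-22 was 2.88% of the mean within N2 and 47.1% within WLZ3. The part of depth in that spread was not tested.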
